A study of Homo sapiens with 30 samples.

Results

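The small nucleolar RNAs (snoRNAs) and small Cajal body RNAs (scaRNAs) were followed here in the input RNA and in the LARP6 peak lists of U-87 MG cells. A gene was a member if GENCODE types it as snoRNA or scaRNA and if it had a sum of at least 100 counts over the 6 libraries of 50 nt reads. The members were thus chosen by their own counts, and 70 of 991 annotated genes of these types passed. By symbol, 44 were C/D box snoRNAs (SNORD), 18 were H/ACA box snoRNAs (SNORA), 6 were scaRNAs (SCARNA), and 2 were gene copies that GENCODE calls U3 and U8.

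U-87 MG is a long-established cell line grown from a human glioblastoma. Of the 6 lines, 5 carried a lentiviral, doxycycline-inducible and myc-tagged LARP6 in addition to the endogenous gene, and the parental cells carried none. The first variant was full length (FL). The others lacked the disordered N-terminal region (ΔNTR), the C-terminal region (ΔCTR), the folded La-module that binds RNA (ΔLa-module), or NTR and La-module together (ΔNTD). Per the labels, all cells had 60 ng/mL doxycycline for 24 h. Each line gave 1 single-end library of 50 nt reads labelled as small RNA (SE50) and 1 paired-end library of 150 nt reads labelled as long RNA (PE150), so that no value has a replicate. Each of the 5 peak lists pools 3 iCLIP replicates of a variant, after the authors subtracted the peaks of parental cells. The markers VIM, CD44, TNC, NES and EGFR were present in every PE150 library (52.0 to 8004 CPM), whereas GFAP, S100B and SOX2 were at 0 to 0.24 CPM and OLIG2 at 1.46 to 2.54 CPM. PTPRC, PECAM1, EPCAM and RBFOX3, which mark other cell types, were at 0 to 2.47 CPM.

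The snoRNAs are short nuclear RNAs that act as guides. C/D box RNAs position the methyltransferase fibrillarin for 2′-O-methylation, and H/ACA box RNAs position the pseudouridine synthase dyskerin. Most of their targets lie in ribosomal RNA, while scaRNAs direct the same modifications on spliceosomal RNAs in Cajal bodies, and a few snoRNAs such as U3, U8, U13, U14 and U17 serve the cleavage or base acetylation of pre-rRNA. Human snoRNAs are usually cut from the introns of host genes, many of which encode parts of the ribosome or are noncoding hosts whose known product is the snoRNA.

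The 4 C/D members with the most counts, SNORD104, SNORD1B, SNORD48 and SNORD17, and a pair that differed widely between lines, SNORD37 and SNORD6, are shown first, as the human reference reads them in 5′ to 3′ direction, with C box and D box in capitals. SNORD104 lies at chr17:64146083-64146152, plus strand, SNORD1B at chr17:76561109-76561192, plus strand, SNORD48 at chr6:31835263-31835326, plus strand, SNORD17 at chr20:17962710-17962946, minus strand, SNORD37 at chr19:3982507-3982572, minus strand, and SNORD6 at chr11:93731502-93731574, minus strand (all GRCh38).
SNORD104: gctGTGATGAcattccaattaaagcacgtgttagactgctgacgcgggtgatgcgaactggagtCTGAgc
SNORD1B: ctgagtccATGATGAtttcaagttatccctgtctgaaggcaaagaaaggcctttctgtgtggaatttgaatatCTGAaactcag
SNORD48: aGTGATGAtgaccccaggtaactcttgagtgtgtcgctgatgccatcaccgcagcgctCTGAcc
SNORD17: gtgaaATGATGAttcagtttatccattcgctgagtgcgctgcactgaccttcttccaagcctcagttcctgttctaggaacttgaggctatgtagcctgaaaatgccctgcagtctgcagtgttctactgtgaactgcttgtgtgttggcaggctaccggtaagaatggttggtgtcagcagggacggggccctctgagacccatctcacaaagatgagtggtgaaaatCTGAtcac
SNORD37: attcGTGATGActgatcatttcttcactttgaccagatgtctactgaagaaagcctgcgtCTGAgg
SNORD6: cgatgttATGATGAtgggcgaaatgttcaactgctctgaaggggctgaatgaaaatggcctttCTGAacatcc

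The next sequences stand for the other classes, and their capitals mark the ACA near the 3′ end. SNORA77, at chr1:203729581-203729705, plus strand, had the most counts of the H/ACA members. SNORA73B, a copy of U17 at chr1:28508559-28508762, plus strand, belongs to the RNAs of pre-rRNA processing. SCARNA3, at chr1:175968398-175968540, minus strand, had the most counts of the scaRNAs.
SNORA77: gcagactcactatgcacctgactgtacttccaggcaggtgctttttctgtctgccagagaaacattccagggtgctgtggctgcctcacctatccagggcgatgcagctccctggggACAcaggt
SNORA73B: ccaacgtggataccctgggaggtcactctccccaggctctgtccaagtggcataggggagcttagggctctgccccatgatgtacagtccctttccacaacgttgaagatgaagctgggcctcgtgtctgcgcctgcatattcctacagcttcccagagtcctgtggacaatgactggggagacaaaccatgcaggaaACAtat
SCARNA3: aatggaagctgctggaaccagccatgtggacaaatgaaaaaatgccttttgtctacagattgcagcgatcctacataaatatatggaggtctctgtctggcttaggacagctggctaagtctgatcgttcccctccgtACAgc

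The sequences were searched for the boxes of each class, as a description. The class names come from gene symbols that already refer to these boxes, so the search was no independent test of them. A C box written as ATGATGA or GTGATGA within the first 20 bases, together with a D box written as CTGA within the last 15, was found in 30 of 44 C/D members (68.2%) and in 0 of 18 H/ACA members. Each motif was searched on the gene's strand only. Windows of the same length directly before and after the 70 members held both boxes in 0 of 140 cases, and a C box alone in 0.714% and a D box alone in 7.14%. An ACA starting 4 to 8 bases before the 3′ end was present in 16 of 18 H/ACA members (88.9%). It was also found in 7 of 44 C/D members (15.9%) and in 10% of the flanking windows. The 269 C/D genes that were no members had both boxes in 59.1%, and the 196 H/ACA genes that were no members had the ACA in 77.6%. Among the 6 scaRNAs, 4 had the ACA and 2 had both C box and D box. The H box pattern ANANNA carried no such contrast, since it occurred in 18 of 18 H/ACA members but also in 108 of 140 flanking windows. The median length was 80 nt for C/D members (64 to 699 nt), 137 nt for H/ACA members (125 to 272 nt) and 139.5 nt for scaRNAs (134 to 330 nt).

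The SE50 counts of the members came mostly from a handful of C/D snoRNAs. In total the members had 248445 counts, of which C/D members took 95.04%, H/ACA members 3.22% and scaRNAs 1.47%. SNORD104, with 71807 counts, SNORD1B with 41930 and SNORD48 with 41872 together made up 62.6%. They were followed by SNORD17 (11550), SNORD38A (9324), SNORD66 (8105), SNORD101 (7245) and SNORD69 (6454). Among H/ACA members the order was SNORA77 (1750), SNORA74A (1333), SNORA73B (1160), SNORA58 (573), SNORA65 (430), SNORA31 (391), SNORA71B (371) and SNORA3B (368). SCARNA3 (1165), SCARNA6 (975), SCARNA7 (700), SCARNA14 (501) and SCARNA11 (167) led the scaRNAs. The median member had 550 counts. A size selection for SE50 is not given in the sources used here, so the class shares and this ranking describe the reads counted and not the abundance of whole RNAs. Just inside the threshold stood SNORA33 (104), SNORA7B (101) and SNORA46 (100), and just outside it SNORA14B (96), SNORA66 (79) and SCARNA5 (79).

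Which snoRNAs could pass the threshold also depended on the gene models. Reads over exons of several genes were set aside as ambiguous by the counting, 40.4 to 54.0% of SE50 reads, and 13.6 to 18.5% mapped to several places. None of the members lay wholly inside exons of another gene on the same strand, and 66 of 70 were free of them. Of the 921 other snoRNA and scaRNA genes, 213 (23.1%) were wholly covered, and 815 had 0 counts. For C/D genes that were no members the covered share was 43.9%. SNORD48 was covered over 60.9% of its length, SNORD37 over 42.4% and SNORA31 over 56.9%, so their counts may be too low. The counts therefore rank what this counting kept and not all snoRNAs of the cell.

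Groups with a known role were unevenly represented. Of 17 annotated genes for U3, U13, U14, U17 and the related RNAs of pre-rRNA processing, 4 were members (SNORD13, SNORA73B, SNORD14E and SNORD3A), and 9 of the 17 were wholly covered by other exons. The group was taken by gene symbol and leaves out the member copies that GENCODE calls U3 (262 counts) and U8 (442 counts). None of the 40 genes of the imprinted chromosome 14 cluster was a member, and the highest, SNORD114-22, had 69 counts. All 83 genes of the imprinted chromosome 15 cluster had 0 SE50 counts, with 36 of them wholly covered. At the size of these libraries the floor was 3 counts per library.

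The members took a small share of every SE50 library, and it was smallest in the parental one. MicroRNAs made up 96.7 to 97.7% of the gene counts. The share of members was 0.318% in parental cells (exact 95% interval 0.315 to 0.322%) and 0.523% in FL (0.519 to 0.528%). In the deletion lines it was 0.575% (ΔNTR, 0.569 to 0.580%), 0.552% (ΔCTR, 0.546 to 0.558%), 0.564% (ΔLa-module, 0.559 to 0.569%) and 0.547% (ΔNTD, 0.542 to 0.551%). Without SNORD104, SNORD1B and SNORD48 the shares were 0.148, 0.151, 0.217, 0.225, 0.166 and 0.240% in the same order. The parental and FL shares then lay side by side. All intervals given here cover counting error only, since several reads may stem from 1 molecule and cultures were not repeated. In bulk RNA, fewer cells that hold an RNA and less of it per cell cannot be told apart.

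**Figure D1:**
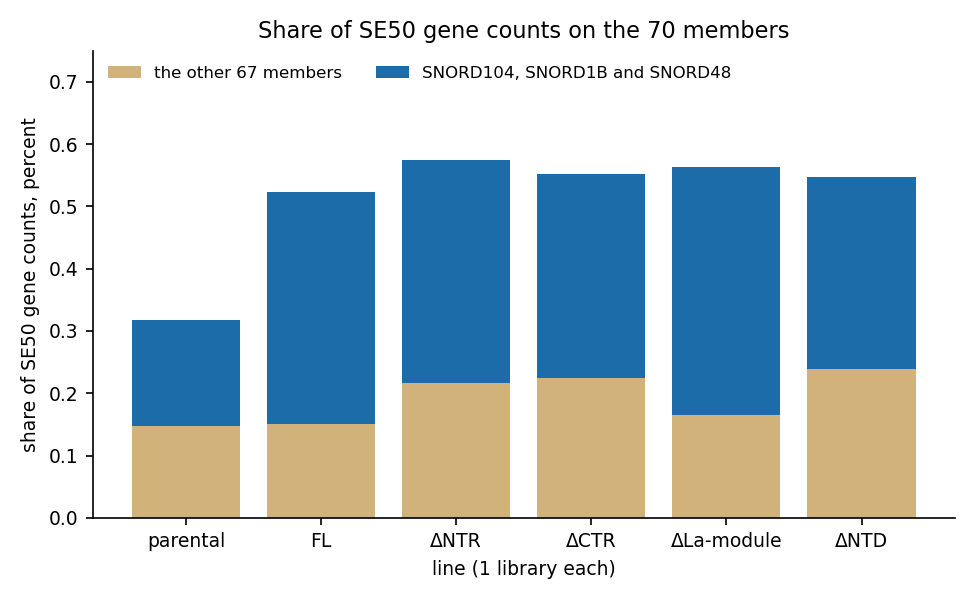
Share of SE50 gene counts (percent, vertical axis) that fell on the 70 members in each of the 6 lines, split into SNORD104, SNORD1B and SNORD48 (blue) and the other 67 members (tan). The whole bar is 0.318% in parental cells and 0.523 to 0.575% in the variant lines, while the tan part is nearly the same in parental cells (0.148%) and FL (0.151%).

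SNORD104, SNORD1B and SNORD48 each reached their lowest level in parental cells, but the lines above them differed. Levels are counts relative to library size after TMM scaling (CPM), and lines are given in the order parental, FL, ΔNTR, ΔCTR, ΔLa-module and ΔNTD. SNORD104, within SNHG25, had 10248, 11193, 11180, 9634, 11508 and 18044 counts, or 1055, 1469, 1541, 1329, 1718 and 1649 CPM. Its highest level was 1.63 times the lowest, with every variant line above the parental one on this scale. SNORD1B, within SNHG16, had 3451, 11029, 6854, 6005, 9638 and 4953 counts, or 355, 1447, 945, 828, 1439 and 453 CPM. SNORD48, an RNA in wide use as a reference for small RNA assays, had 3854, 11743, 5973, 4568, 10099 and 5635 counts, or 397, 1541, 823, 630, 1508 and 515 CPM. Both were highest in FL and ΔLa-module, lowest in parental cells and nearly as low in ΔNTD.

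Against parental cells the ratio of SNORD1B was 4.08 in FL (3.92 to 4.24) and 4.05 in ΔLa-module (3.90 to 4.21), above 2.66 in ΔNTR (2.55 to 2.77), 2.33 in ΔCTR (2.24 to 2.43) and 1.27 in ΔNTD (1.22 to 1.33). For SNORD48 it was, in the same order, 3.89 (3.75 to 4.03), 3.80 (3.66 to 3.95), 2.08 (1.99 to 2.16), 1.59 (1.52 to 1.66) and 1.30 (1.25 to 1.35). The FL and ΔLa-module libraries shared other features. MIR100, the microRNA gene with the most SE50 counts, took 75.5% and 73.6% of their gene counts against 65.8 to 69.5% elsewhere, and small nuclear RNA genes took 0.00327 and 0.00344% against 0.00554 to 0.00882%. The part of the library makeup in the SNORD1B and SNORD48 levels was not tested.

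SNORD17, a long C/D RNA within SNX5, kept a flatter profile over the variants. Its counts were 1185, 2107, 2393, 1877, 1961 and 2027, or 122, 277, 330, 259, 293 and 185 CPM. The ratio to parental cells was highest in ΔNTR at 2.704 (2.52 to 2.90), then 2.40 in ΔLa-module (2.23 to 2.58), 2.27 in FL (2.11 to 2.44), 2.12 in ΔCTR (1.97 to 2.29) and 1.52 in ΔNTD (1.41 to 1.63). All 5 variant lines stood above the parental one. SNORD70, within NOP58, whose protein is a core part of C/D particles, had 260, 512, 427, 311, 410 and 539 counts. Its level was 26.8 CPM in parental cells and 42.9 to 67.2 CPM in the variants, with the highest level in FL.

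Other C/D members followed a different order. SNORD37, within the elongation factor gene EEF2, had 1089, 512, 321, 905, 403 and 1497 counts, or 112, 67.2, 44.2, 125, 60.2 and 137 CPM. It was low in FL, ΔNTR and ΔLa-module, and the parental, ΔCTR and ΔNTD lines lay above them without overlap. In ΔNTR the ratio to parental cells was 0.395 (0.347 to 0.448) and in ΔNTD 1.22 (1.13 to 1.32). SNORD6, within TAF1D, had 295, 144, 120, 262, 149 and 767 counts, or 30.4, 18.9, 16.5, 36.1, 22.2 and 70.1 CPM. It divided the lines in the same way, with ΔNTD 2.31 times the parental level (2.02 to 2.65). SNORD83A, within the ribosomal protein gene RPL3, had 281, 105, 131, 112, 114 and 568 counts, or 28.9, 13.8, 18.1, 15.4, 17.0 and 51.9 CPM. Here ΔCTR sat with the low lines, and ΔNTD was again the highest. SNORD6, SNORD1B, SNORD48, SNORD83A and SNORD37 had the widest ranges over the 6 lines among members with at least 500 counts, 1.61 to 2.02 on the log2(CPM + 1) scale, against a median of 0.92 over all members.

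**Figure D2:**
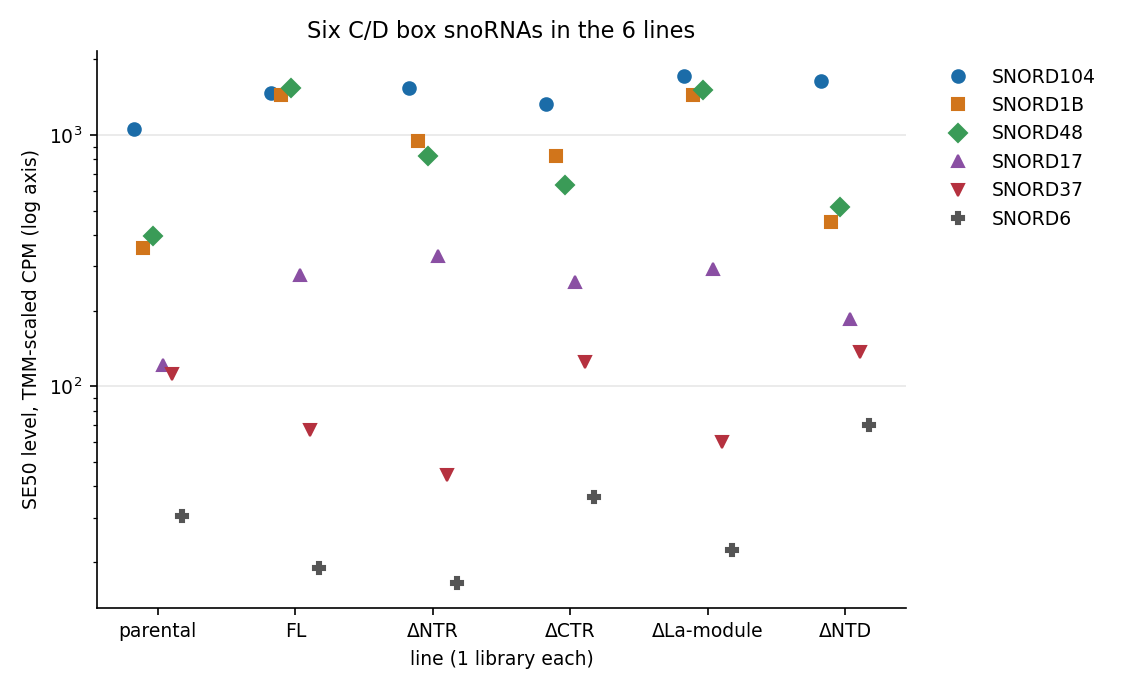
SE50 level in TMM-scaled CPM (log axis) of 6 C/D snoRNAs in each line, 1 library per point. SNORD1B and SNORD48 are highest in FL and ΔLa-module, SNORD37 and SNORD6 are low in FL, ΔNTR and ΔLa-module, and SNORD6 reaches its highest level, 70.1 CPM, in ΔNTD.

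Each variant line was then compared with the parental line over all members, on the log2(CPM + 1) scale and with a difference of at least 2-fold as the rule. In FL, 4 members were higher (SNORD1B, SNORD48, SNORD17 and SNORD70) and 3 lower (SNORD127, SNORD83A and SNORA23), while of all 1169 genes with at least 100 SE50 counts 3.51% were higher and 3.51% lower. In ΔNTR, SNORD1B, SNORD48, SNORD17, SNORD70, SNORD105 and SNORD88A were higher (6, against 1.88% of all genes), and SNORD37 and SNORA20B lower (2, against 2.05%). In ΔCTR, SNORD1B, SNORD17, SNORD105 and SNORD91A were higher (4, against 1.54%) and 0 lower (2.57%). These shares are 5.71, 8.57 and 5.71% of the members for the higher genes, and 4.29, 2.86 and 0% for the lower ones.

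The ΔLa-module line had 7 higher members, SNORD1B, SNORD48, SNORD17, SNORD66, SNORD70, SCARNA6 and SNORA79B (10%, against 2.91% of all genes). Its 3 lower members were all of the H/ACA class, SNORA73B, SNORA23 and SNORA33 (4.29%, against 5.05%), and SNORA33 rested on 3 counts there and 21 in parental cells. In ΔNTD, SNORD6, SNORD105, SNORD88A and SNORD3A were higher (4, against 1.8%) and 0 lower (2.82%). The 5 comparisons share the parental library, so a low parental value enters all of them. SNORD105, within PPAN, had 100, 98, 198, 194, 113 and 264 counts, or 10.3, 12.9, 27.3, 26.8, 16.9 and 24.1 CPM. Its ΔNTR, ΔCTR and ΔNTD values lay apart from those of parental, FL and ΔLa-module cells.

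The lower members, beside SNORD37 and SNORD83A described above, were of both main classes. SNORD127, within PRPF39, was lower than in parental cells in FL (40.7 and 17.8 CPM, log2 difference -1.14) and at -0.80 in ΔLa-module. SNORA23, within IPO7, had 44, 7, 15, 16, 8 and 43 counts, a ratio of 0.203 in FL (0.077 to 0.454) and 0.264 in ΔLa-module (0.107 to 0.566). SNORA73B had 275, 126, 172, 165, 83 and 339 counts, and its ratio was 0.438 in ΔLa-module (0.338 to 0.562). SNORA23 and SNORA73B were thus lowest in FL and ΔLa-module, where SNORD1B and SNORD48 were highest. SNORA20B, which lies in no annotated host, was at 65 counts in parental cells and 15 in ΔNTR (log2 difference -1.33). The strongest negative differences in the lines without a 2-fold fall were -0.86 for SNORD83A, -0.79 for SNORA23 and -0.61 for SNORD67 in ΔCTR, and -0.78 for the U3 copy, -0.57 for SCARNA14 and -0.39 for SNORD53B in ΔNTD.

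The members differed from parental cells in both directions. The counting interval of the ratio lay wholly above 1 for 18, 25, 24, 23 and 36 of the 70 members from FL to ΔNTD, and wholly below 1 for 18, 9, 10, 17 and 3. The median size of the log2 difference, without its sign, was 0.47, 0.48, 0.33, 0.53 and 0.41, beside 0.32, 0.28, 0.31, 0.35 and 0.31 over all 1169 genes. The median log2 difference with its sign was -0.11, 0.18, 0.09, 0.05 and 0.38, beside 0.01, -0.04, -0.08, -0.08 and -0.05 over all genes. Of the 70 members, 33, 42, 40, 35 and 53 stood above parental cells. Neither these counts nor those of the intervals were made over all 1169 genes, so they have no background share beside them. The choice of scale matters here. With plain library totals the median of all genes shifted by -0.14, 0.16, 0.26, -0.11 and 0.26, and the members higher and lower were 4 and 5 (FL), 13 and 2 (ΔNTR), 8 and 0 (ΔCTR), 4 and 6 (ΔLa-module), 13 and 0 (ΔNTD). Scaled to the members' own total, which SNORD104, SNORD1B and SNORD48 dominate, they were 2 and 29, 0 and 11, 0 and 4, 1 and 27, and 1 and 2. On that scale SNORD1B and SNORD48 were at -0.11 and -0.09 in ΔNTD, and SNORD17 stayed above parental cells in all 5 lines (0.14 to 0.78). SNORD104 was at -0.41, -0.11, -0.15, -0.26 and 0.18 there, from FL to ΔNTD.

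By class, the summed C/D level was above the parental one in each line, by ratios of 1.92 (1.90 to 1.95), 1.61 (1.58 to 1.63), 1.43 (1.40 to 1.45), 2.03 (2.00 to 2.06) and 1.40 (1.38 to 1.42) from FL to ΔNTD. The H/ACA sums were at 0.929 (0.858 to 1.01), 1.16 (1.08 to 1.25), 0.981 (0.906 to 1.06), 1.01 (0.930 to 1.09) and 1.21 (1.13 to 1.29). The scaRNA sums were at 0.923 to 1.16, and SCARNA6, within ATG16L1, was the scaRNA above parental cells in every variant line, with 113, 168, 154, 136, 177 and 227 counts and ratios of 1.61 to 2.27. C/D members thus had the higher sums, to which the 3 leading RNAs added much in FL and ΔLa-module. Over all 70 members the ratios were 1.86, 1.57, 1.39, 1.96 and 1.38. Over the 67 members of every class without these 3 they were 1.15, 1.28, 1.22, 1.24 and 1.30. A C/D sum without all 3 was not taken.

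The class medians, which give each member the same weight, also lay higher for C/D members. For C/D members the median log2 difference was 0.05, 0.23, 0.25, 0.28 and 0.43, and for H/ACA members -0.19, 0.18, -0.13, -0.22 and 0.13. Length, which divides the classes, ran alongside. The 31 members over 120 nt had medians of -0.18, 0.12, -0.09, -0.16 and 0.14, and the 23 members of up to 80 nt 0.06, 0.23, 0.27, 0.28 and 0.41. Across the 70 members Spearman's rho between length and log2 difference was -0.27 to -0.11 and that with GC content -0.11 to 0.05, as a description of points that share their libraries. SNORA77, within ATP2B4, went with the C/D leaders, at 25.2, 43.0, 40.9, 30.9, 49.1 and 29.9 CPM.

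**Figure D3:**
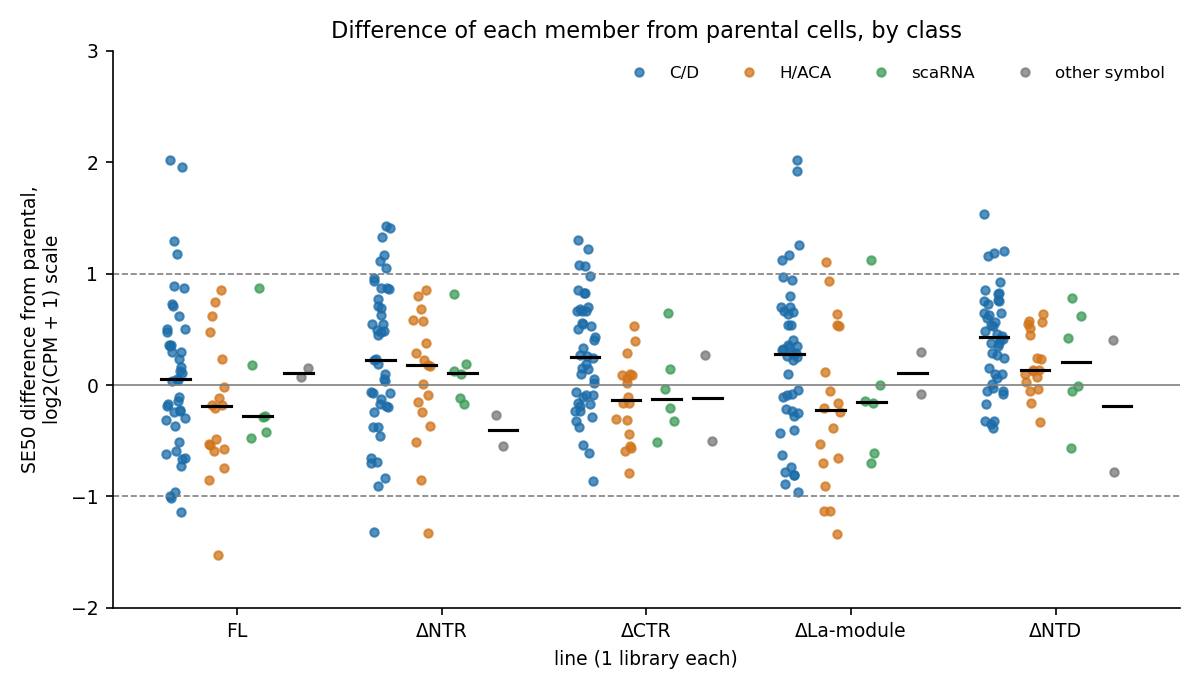
Difference of each member from parental cells in SE50 (log2(CPM + 1) scale, vertical axis) for the 5 variant lines, coloured by class, with the class median as a black bar and dashed lines at 2-fold. SNORD1B and SNORD48 stand at 1.92 to 2.02 in FL and ΔLa-module, and the C/D median is above the H/ACA median in every line (0.43 against 0.13 in ΔNTD).

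The genes that contain a member were grouped by kind. The 9 members within long noncoding RNAs, which include SNORD104, SNORD1B and SNORD48, had summed ratios to parental cells of 2.41, 1.81, 1.54, 2.53 and 1.46. The 11 members within ribosomal protein genes had summed ratios of 0.996, 1.13, 1.11, 0.989 and 1.16. As medians of the log2 difference, the former were at 0.47, 0.63, 0.40, 0.54 and 0.63. The latter were at -0.54, 0.01, -0.09, -0.25 and 0.38. The 3 leading RNAs are 3 of the 9 members within long noncoding RNAs and still bear on their median. In FL the rest were at 0.24 (SNORD12C), -0.22 (SNORD99), 0.87 (SNORD93), 0.06 (SNORD123), -0.49 (SNORA71B) and 0.47 (SNORA7B). The PE150 levels of SNHG16, SNX5, EEF2 and TAF1D varied less than the SE50 levels of their members SNORD1B, SNORD17, SNORD37 and SNORD6. SNHG16 was at 218, 240, 223, 215, 243 and 265 CPM, SNX5 at 99.0, 102, 94.9, 99.2, 96.2 and 99.3 CPM, and EEF2 at 2411, 2203, 2316, 2280, 2409 and 2361 CPM. TAF1D, around SNORD6, was at 65.8, 73.0, 63.0, 69.1, 64.8 and 70.3 CPM. Over the 66 members within another gene, rho between the SE50 level of the member and the PE150 level of that gene was -0.11 to 0 in the 6 lines. Some containing genes, such as PPAN, SNHG25, SNHG32 and MATR3, were at 0 to 4.08 CPM in PE150, and their own counts can be short of reads where gene models overlap.

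The PE150 libraries gave another ranking of the same RNAs. SNORD3A, a copy of U3, led with 13368 counts, then SNORA73B with 3134 and SCARNA7 with 2215, while SNORD104 had 2 counts and SNORD1B, SNORD48, SNORD38A and SNORD66 had 0. In SE50, SNORD3A had 185 counts. Across the 70 members rho between both levels was -0.20 to -0.10 in the 6 lines. Members made up 0.0124 to 0.0170% of PE150 gene counts, and 23 had at least 100 PE150 counts while 9 had 0. None of the 23 differed by 2-fold or more from parental cells in PE150, where 0.0516% (FL), 0.69% (ΔNTR), 0.0709% (ΔCTR), 0.374% (ΔLa-module) and 0.303% (ΔNTD) of 15511 genes did.

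Some members had enough counts to be read in both kinds of library. SNORD17 had 68, 92, 74, 71, 99 and 83 PE150 counts, with log2 differences of 0.03 to 0.33, above parental cells in all 5 lines but well below its SE50 differences of 0.60 to 1.43. SNORD13, the U13 RNA that pairs with the 18S rRNA precursor for base acetylation, was below parental cells in all 5 lines in both. Its SE50 counts were 638, 445, 414, 364, 412 and 571, and its PE150 counts 62, 30, 29, 31, 37 and 31. The log2 differences were -0.38 to -0.09 in SE50 and -0.68 to -0.53 in PE150, and all 5 share the parental library of each kind. In SE50 the interval of the ratio reached past 1 in FL (0.786 to 1.01) and ΔLa-module (0.826 to 1.06). On the TMM scale it lay below 1 in ΔNTR, ΔCTR and ΔNTD. The SE50 TMM factors of these lines were 1.08, 1.17 and 1.17, against 0.943 in parental cells. These intervals thus depend on the scale, and those on plain totals are not given here. SNORD3A went in opposite directions in ΔNTD, 1.53 in SE50 from 17 and 76 counts and -0.53 in PE150 from 2163 and 1530 counts. SNORA73B, at -1.13 in SE50 for ΔLa-module, was at -0.01 in PE150 with 500 and 530 counts.

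**Figure D4:**
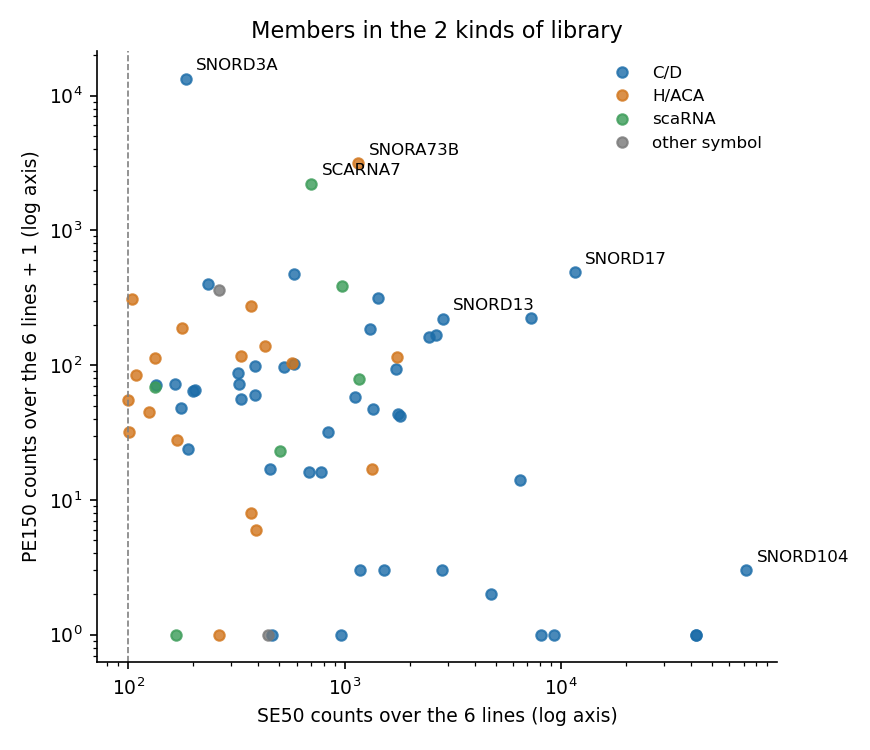
Counts of each member summed over the 6 lines in SE50 (horizontal, log axis) and PE150 (vertical, counts + 1, log axis), coloured by class, with the SE50 threshold of 100 as a dashed line. SNORD104 has 71807 SE50 and 2 PE150 counts, whereas SNORD3A has 185 and 13368.

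The last question was whether LARP6 peaks lay on the members themselves. From FL to ΔNTD, the authors deposited 14334, 17180, 15870, 636 and 291 peaks. Of these, 1 FL peak and 1 ΔCTR peak overlapped a member on its strand. This is 1.43% of the members in each of these lists, and the others had 0 of 70. The members are a chosen set and each list is 1 pool, so no interval is given. SNORD104, SNORD1B, SNORD48 and SNORD17 had none in any list. The FL peak had the minimum score of 3 and shared 8 of its 20 nt with the 5′ end of SNORD13. The ΔCTR peak had a score of 4 and lay wholly within the U8 copy, at chr11:123301464-123301504 on the plus strand of GRCh38. U8 serves the maturation of the large ribosomal subunit RNAs, and this copy had 76, 67, 46, 70, 66 and 117 SE50 counts and 0 in PE150. It lies at chr11:123301390-123301523, plus strand, in no annotated host, and the peak (capitals) covers its positions 75 to 115 of 134.
U8: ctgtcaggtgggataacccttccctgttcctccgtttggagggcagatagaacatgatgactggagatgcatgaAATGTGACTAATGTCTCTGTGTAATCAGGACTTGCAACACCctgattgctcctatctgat

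Windows of the same length beside the members gave like numbers. Directly upstream, 1 window held the same FL peak at SNORD13 and 1 a ΔCTR peak (SCARNA7), and directly downstream 1 held an FL peak (SNORD46). On the opposite strand there were 0 in every list. A peak lay within 1000 nt of 13, 12, 16, 3 and 0 members, from FL to ΔNTD in the order used above. This count was not made for other genes or other places within the containing genes, so it has no background share beside it. Among all 991 snoRNA and scaRNA genes, 1 further gene had a peak, a U3 copy with 3 SE50 counts in the ΔNTR list, with a score of 4.

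Peaks were common in the genes around the members. Of 52 containing genes with at least 100 PE150 counts, 34 held an FL peak (65.4%), 32 one of ΔNTR (61.5%) and 35 one of ΔCTR (67.3%), but 4 (7.69%) and 1 (1.92%) one of ΔLa-module or ΔNTD. Over all 14707 such genes the shares were 31.4, 32, 33.5, 3.07 and 1.65%. The containing genes had more input, with a median of 22863.5 PE150 counts against 3523, and the part of abundance in the shares was not tested. The members, of 64 to 699 nt, are also shorter than the genes around them. The part of length in the shares was not tested either. EEF2, around SNORD37, had summed scores of 184 (FL), 181 (ΔNTR), 236 (ΔCTR) and 6 (ΔLa-module), the highest FL sum of these genes. From FL to ΔCTR, EIF5, around SNORA28, had 134, 122 and 104, ATP5F1B, around SNORD59A, 119, 109 and 131, and ATP2B4, around SNORA77, 78, 122 and 149. SNORD37, SNORA28, SNORD59A and SNORA77 themselves held no peak.

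A list of 28 genes was taken, with the core, assembly and transport proteins of these particles. It also held the La gene SSB and genes that act on RNA caps and ends (TGS1, XRN1, XRN2, DIS3, EXOSC10 and PARN). In PE150 none differed by 2-fold or more in any line, with log2 differences from -0.33 to 0.46. From FL to ΔNTD, 0.0516, 0.69, 0.0709, 0.374 and 0.303% of 15511 genes did, so none among 28 is close to that share. Fibrillarin (FBL), the methyltransferase of C/D particles, was at 114 CPM in parental cells with log2 differences of -0.08 to 0.02. DKC1, the pseudouridine synthase of H/ACA particles, was at 99.8 CPM with -0.15 to 0.15. A peak was present in 9, 10, 13, 0 and 1 of the 28 genes from FL to ΔNTD, or 32.1, 35.7, 46.4, 0 and 3.57%, beside 31.4, 32, 33.5, 3.07 and 1.65% of all genes with at least 100 PE150 counts. COIL, the scaffold of Cajal bodies, had summed scores of 25, 0 and 10 for FL, ΔNTR and ΔCTR. NOLC1, a nucleolar and Cajal body chaperone of the particles, scored 17, 30 and 38, and NOP10, an H/ACA core protein, 8, 0 and 6. FBL and NHP2 held no peak in any list.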

How the data were processed

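iCLIP peaks and input RNA-seq of 6 U-87 MG lines were used. The authors mapped input reads with STAR (2.7.10b) after TrimGalore (0.6.10), to GRCh38.p13 with GENCODE V42, and deposited counts per gene in 3 columns. Forward counts were used for SE50 (6181270 to 10307756 per library) and reverse counts for PE150 (25027075 to 28692476). The deposited score of a peak is the authors' sum over 3 merged replicates, at least 3 with parental peaks subtracted by bedtools (2.30.0). How deeply the iCLIP libraries were sequenced is unknown here.

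Gene types, exons and sequences came from GENCODE 44 and the matching GRCh38 reference, to which 62625 of 62703 gene identifiers matched without version. Counts were scaled with edgeR (4.0.16) TMM factors, and differences are log2(CPM + 1), which understates low genes. Ratios of 2 counts carry exact binomial 95% intervals. Overlap required 1 nt on the same strand. With 1 library per line and pooled peak lists, no p-value could be had. Named genes were the 8 highest SNORD and SNORA, the 5 highest SCARNA, the 3 largest rises and falls per line among members with at least 50 counts over both libraries, the 5 widest ranges among sums of at least 500, members with a peak and members at the threshold. The members and lists were chosen with earlier results of these data known.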

Additional observations from a re-analysis of the deposited data

How the results depend on the processing

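Counts of members past 2-fold rest on 1 library per line, and the scale decides many of them. The changes below come from fewer or other genes, or another total, by construction, and their cause was not tested further. No paired analysis was possible because each input line has 1 library and replicates are merged within every list of peaks. Leaving out each SE50 library in turn gave 62 to 67 members, lowest without ΔNTD. Of the 33 member differences past 2-fold, none turned its direction under the other scales, pseudocounts or unstranded counts of the same SE50 libraries, but these reuse the same reads. Of the 15 with at least 100 PE150 counts, 8 had the same direction in the PE150 libraries and 7 the opposite one, 0.23 for SNORA23 and 0.38 for SNORD83A in FL, -0.045 for SNORD70 in ΔNTR, -0.015, 0.066 and -0.040 for SNORD70, SNORA23 and SNORA79B in ΔLa-module, and -0.53 for SNORD3A in ΔNTD. Of the 18 with fewer PE150 counts, 4 had the opposite direction and 13 had no count in either library.

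In the order FL, ΔNTR, ΔCTR, ΔLa-module and ΔNTD, members higher and lower by 2-fold were 4 and 3, 6 and 2, 4 and 0, 7 and 3, and 4 and 0 as reported. Plain totals gave 13, 8, 4 and 13 higher in the lines from ΔNTR on, and 5 lower in FL and 6 in ΔLa-module. The total without MIR100 gave 7 higher in FL, 8 in ΔCTR and 8 in ΔNTD, and the members' own total 2, 0, 0, 1 and 1 higher and 29, 11, 4, 27 and 2 lower. A pseudocount of 0.1 CPM gave 7 higher in ΔCTR and 5, 4, 1 and 6 lower in FL, ΔNTR, ΔCTR and ΔLa-module, and one of 5 CPM gave 1 higher in ΔNTD and 0, 1 and 0 lower in FL, ΔNTR and ΔLa-module. With sums of at least 30 (99 members) 6 were lower in FL. With sums of at least 1000 (26 members) 2 were higher in ΔCTR and 1 in ΔNTD, and 1 was lower in ΔNTR and in ΔLa-module. Unstranded counts gave 5 lower in FL, and the PE150 libraries 0 in either direction in every line. DESeq2 size factors (1.42.0) kept all of these counts within 1.5 times.

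From parental to ΔNTD, in the order of the report, members held 0.327, 0.536, 0.591, 0.567, 0.579 and 0.563% of unstranded counts, and 1.04, 2.14, 1.68, 1.74, 2.14 and 1.69% of counts without MIR100. Without SNORD104, SNORD1B and SNORD48, an alternative chosen after the data were seen, as was the split by length, the shares were 0.148, 0.151, 0.217, 0.225, 0.166 and 0.240%. C/D members took 93.0, 96.3, 95.01, 95.2, 96.3 and 94.0% of member counts, 92.1, 96.7, 94.7, 94.9, 96.6 and 92.7% without the top member of each class, and 91.5, 94.9, 94.0, 94.2, 94.98 and 93.0% over members free of other exons. The FL peak on SNORD13 was lost (0) with at least 50% of the peak required inside or a score above 3. Members on the opposite strand were 0 for FL and ΔCTR, and in downstream windows 0 for ΔCTR.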

Other observations

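Reads on the opposite strand of the members were nearly absent, with 1 count in SE50 over the 70 genes beside 248445 on their own strand. The 17 genes of pre-rRNA processing had 20048 PE150 counts in all, and 3026 of them fell on SNORD3B-2, a copy of U3 that was no member with 28 SE50 counts.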
